A study of Sus scrofa with 226 samples.

Results

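Sensory neurons of the pig dorsal root ganglion that carried little OSMR transcript were divided, within each animal, into cells with longer and cells with shorter action potentials. OSMR encodes the oncostatin M receptor, and a neuron was kept when OSMR stood below 50 CPM, its count scaled to the total count of the cell. That left 160 neurons, 70.8% of all that were sequenced. Each animal's kept cells were then split at the median of the value the authors list as APD, the duration of the action potential. The 77 cells above the median of their animal form the long class, and the 83 cells at or below it form the short class. The other 66 neurons carried OSMR at 50 CPM or more. The cells nearest to that level held 47.9 CPM below it and 50.3 CPM above it.

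All neurons came from 10 wild-type (WT) pigs aged 11 to 20 weeks. They were dissociated, cultured for 1, 2 or 3 days, recorded by patch clamp, and afterwards taken up singly for Smart-Seq2, a full-length cDNA method that uses no molecular identifiers. The long class held 45, 24 and 8 cells at 1, 2 and 3 days, and the short class held 46, 29 and 8. Within animals the days were not always matched, and day was not a term in the tests. Animal 9 gave 5 long and 10 short cells at 1 day, and 6 long and 1 short at 2 days. Animal 5 gave 6 long and 3 short cells at 1 day, and 3 long and 7 short at 2 days. Animal 6, by contrast, gave 12 of each class at 1 day and 2 of each at 2 days. Cells of 1 animal share their source, so the animal served as the replicate, and every animal gave both classes. Animals gave between 5 and 28 of these cells each. Animals 1 and 8 gave the fewest, with 2 long and 3 short cells apiece. Cultured cells picked by hand are what was recorded, and no label gives the nerve fibre type of a cell.

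The action potential of a sensory neuron rises through voltage-gated sodium channels and is ended by potassium channels, while calcium entry and tetrodotoxin-resistant sodium current hold a broad shoulder in many nociceptors. Broad action potentials with an inflection on the falling phase are a classical property of nociceptors with unmyelinated axons, and narrow ones of low-threshold and cold-sensing neurons. Genes for these channels, for the receptors that mark fibre types and for the surrounding glia were therefore followed across the split.

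The duration chose the classes, so its values are a description. APD, listed with no unit, ran from 2.30 to 5.77 with a median of 3.25 in long cells, and from 0.678 to 3.47 with a median of 2.34 in short cells. Averaged over animals it was 3.42 ± 0.53 in the long class and 2.23 ± 0.27 in the short class (SD, n = 10 animals). Because each animal had its own median, the ranges of the classes overlapped across animals. The longest short cell and the shortest long cell of an animal lay between 0.0335 and 0.502 apart. In the listed second inflection, which belongs to the same waveform, 0 of 77 long cells lacked it (exact 95% binomial interval up to 4.68%) and 13 of 83 short cells lacked it (15.7%, interval 8.61 to 25.3%). These intervals cover counting error only. Maximal slope of the raw trace, also part of that waveform, averaged 137.4 ± 18.7 in the long class and 157.6 ± 20.9 in the short class.

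**Figure D1:**
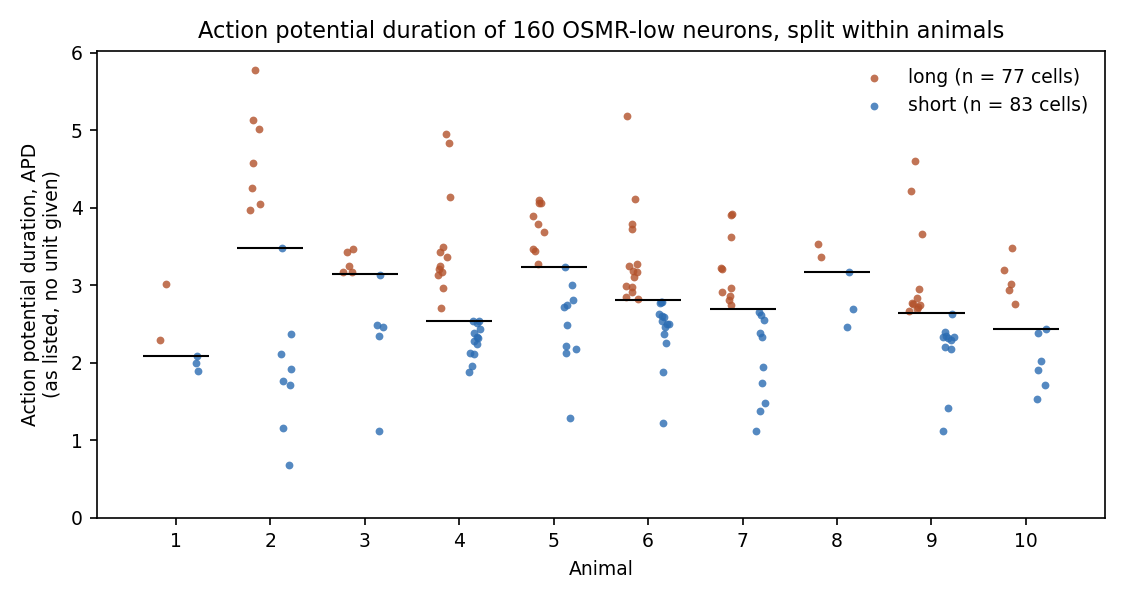
Action potential duration (APD, y axis, as listed and with no unit given) of each of the 160 neurons by animal (x axis), with long cells left of short cells and a line at the median of the animal. Each class lies on its own side of the line by construction, and animals 1 and 8 have 5 cells each.

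OSMR-low neurons as a whole had shorter action potentials than the 66 neurons with OSMR at 50 CPM or more. Animal means of APD were 2.79 ± 0.29 in OSMR-low neurons and 3.96 ± 0.56 in the others (SD, n = 10 animals), lower in 10 of 10 animals (exact test flipping the signs of the animals' differences, two-sided, p = 0.00195, the smallest that 10 animals can give). The split described here lies within the shorter of these populations.

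The cells had neuronal transcripts in both classes. UCHL1, SNAP25 and STMN2 had reads in 100% of long and of short cells, while POU4F1, a sensory neuron transcription factor, had reads in 6.49% of long and 7.23% of short cells. RBFOX3 had reads in 33.8% of long and 37.3% of short cells, and MAP2 in 64.9% and 78.3%. Of the 15 measured neuron markers, 3 had a median of 0 CPM in long cells and 2 in short cells. Total counts per cell ran from 126840 to 3998626 in the long class and from 109726 to 4455869 in the short class. Neither total counts (adjusted p = 0.757) nor the mitochondrial share (5.00% ± 2.19 long, 5.33% ± 2.58 short, adjusted p = 0.757) passed the exact sign-flip test over animals, adjusted over 8 quality measures. Neuron markers, on the mean log2(CPM + 1) scale, were at 5.82 ± 0.56 in the long class and 6.14 ± 0.52 in the short class. These were lower in 7 of 10 animals, with an exact p of 0.213 (adjusted 0.568). Satellite glia markers, on the same scale, were at 2.17 ± 0.42 in the long class and 2.79 ± 0.64 in the short class. They were lower in 8 of 10 animals, with an exact p of 0.0137 (adjusted 0.0547). Schwann cell markers were at 2.48 ± 0.46 in the long class and 2.91 ± 0.49 in the short class (lower in 8 of 10 animals, exact p = 0.0117, adjusted 0.0547). Of the 15 measured satellite glia markers, 6 had a median of 0 CPM in long cells and 5 in short cells. Of the 13 measured Schwann cell markers, 7 had a median of 0 CPM in each class, MBP and PRX among them. Macrophage markers were at 1.48 ± 0.70 in the long class and 1.53 ± 0.69 in the short class.

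Across the transcriptome, no gene passed the test between long and short neurons. Counts were summed per animal and class and compared with edgeR's quasi-likelihood method, blocked on the animal, for 15228 genes. At an adjusted p under 0.05, 0 genes (0%) were called, and the smallest adjusted p was 0.332. At an unadjusted p under 0.05 there were 1045 genes (6.86%), 579 of them lower in long neurons (3.8%) and the others higher (3.06%), where 5% of the genes would be 761.4. DESeq2, run on the same sums with the same block, gave an adjusted p to 14637 of these genes and none to 591. It called 47 of the 14637 (0.321%), 10 higher in long neurons (0.0683%) and 37 lower (0.253%). Limma on means of log2(CPM + 1) over cells called 0 genes, with 1608 at an unadjusted p under 0.05. Without a filter on low counts edgeR called 16 (0.0542%), 1 higher and 15 lower. DESeq2 was run only on genes that passed the filter. Of these 16, 13 had passed it, and DESeq2 called each of the 13 (81.2% of the edgeR list and 27.7% of the DESeq2 list). The rest were not tested by DESeq2. The gene values that follow therefore describe differences whose call depends on the tool and the filter.

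The cold-sensing channel TRPM8 (ENSSSCG00000016314), which opens on cooling and on menthol, was lower in long than in short neurons. Its level in the sums ran from 2.08 through a median of 4.68 to 6.20 log2 CPM in the long class, and from 3.25 through 7.76 to 9.68 in the short class. Short sums reached above every long sum in 7 animals, and the classes overlapped in the rest. The log2 fold change, long over short, was -2.85 ± 0.75 (SE, n = 10 animals), with lower values in 8 of 10 animals. edgeR gave an unadjusted p of 0.00146 and an adjusted p of 0.695, and DESeq2 an adjusted p of 0.0152 (0.0152 to 0.996 over the alternatives). Without the tenth of cells with the most satellite glia signal the log2 fold change was -1.36, and on means of log2(CPM + 1) over cells it was -1.13, so that its size depended on which cells were summed and how.

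Single cells show where that difference lay. TRPM8 reached 50 CPM in 11 of 77 long cells (14.3%, exact 95% binomial interval 7.35 to 24.1%) and in 18 of 83 short cells (21.7%, 13.4 to 32.1%). At 500 CPM, a level chosen after the values had been seen, it was 1 of 77 long cells (1.30%, 0.0329 to 7.02%) and 14 of 83 short cells (16.9%, 9.54 to 26.7%). As above, the intervals cover counting error only, leave out the spread between animals and are no test. Those 15 cells came from 9 animals and had a median APD of 1.71. The highest cell held 821 CPM in the long class and 5455 CPM in the short class. TRPM8 below 50 CPM was spread over both classes, as the plot of single cells shows.

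**Figure D2:**
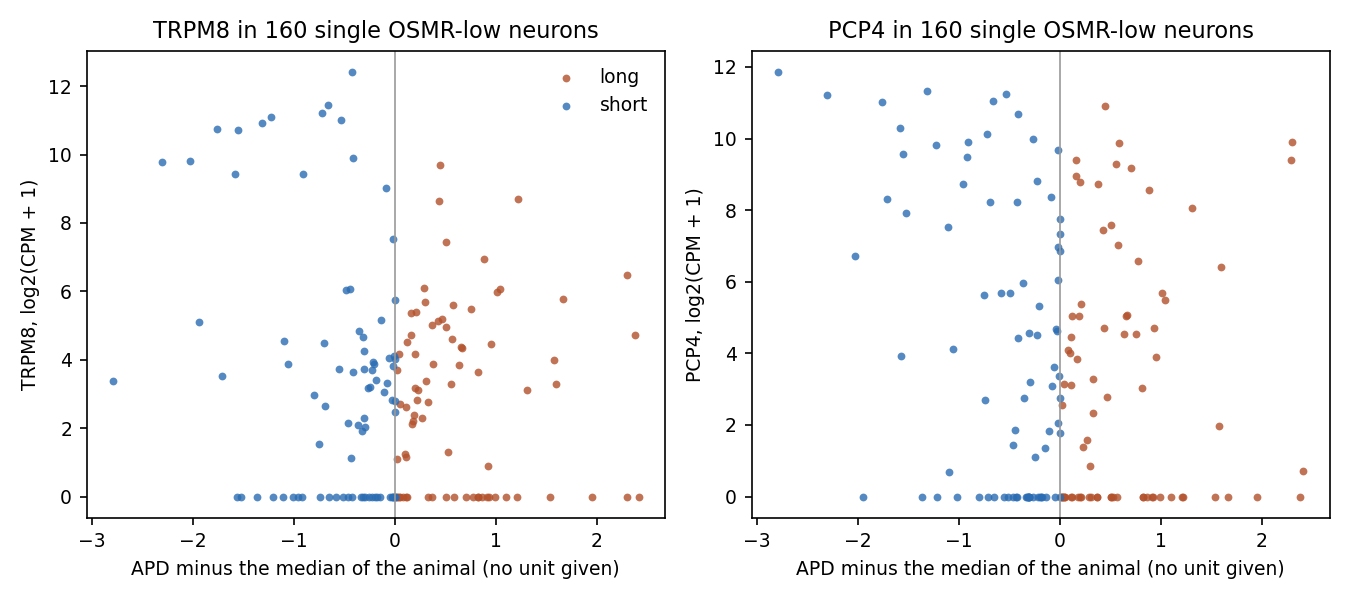
TRPM8 (left) and PCP4 (right) as log2(CPM + 1) in each of the 160 neurons (y axis) against APD minus the median of the animal (x axis, no unit given). Of the 15 cells with TRPM8 at 500 CPM or more, 1 is long and 14 are short, while cells with PCP4 lie on both sides.

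The list of cold thermoreceptor genes had 5 tested members, of which edgeR called 0 and DESeq2 called 1, TRPM8. By edgeR 3 were lower at an unadjusted p under 0.05, beside 3.8% of all genes, and 0 were higher. Its median log2 fold change was -1.71, against -0.0082 over all genes tested. Besides TRPM8 the lower members were the transcription factor FOXP2 (-1.76 ± 0.63, lower in 7 of 10 animals) and the orphan receptor GPR26 (-1.71 ± 0.67, lower in 6 of 10). The remaining members were CDH8 (-0.667 ± 0.787, lower in 7 of 10) and TAFA4, which went the other way (1.355 ± 0.686, higher in 6 of 10). The list was chosen with earlier results of these data known.

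PCP4 (ENSSSCG00000037110), a small protein that binds calmodulin, ran from -1.97 through 5.43 to 7.92 log2 CPM in long sums and from -0.32 through 7.54 to 10.6 in short sums. A sum without a read stands at -1.97 on this scale. Levels were lower in the long class in 9 of 10 animals, and both classes had their lowest sum in animal 8. Its log2 fold change was -2.74 ± 0.57 (edgeR adjusted p = 0.365, DESeq2 adjusted p = 4.3e-05), and edgeR called it without animal 5 (-3.15, adjusted p = 0.00603, and 4.3e-05 to 0.916 over the alternatives). PLCD4, a phospholipase C of the delta family, was picked out after the values had been seen. It had a log2 fold change of -4.16 ± 0.98 (edgeR adjusted p = 0.695, DESeq2 adjusted p = 0.0141, and 0.00856 to 0.905 over the alternatives), with 1 of 77 long cells and 13 of 83 short cells at 50 CPM or more.

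Some of this moved when the TRPM8 cells were set aside. That step also changed the APD classes, since 14 of the 15 cells at 500 CPM or more were short, with a median APD of 1.71 over the 15. Whether the values moved with TRPM8 or with the APD difference left between the classes was not tested. When the 29 cells with TRPM8 at 50 CPM or more were set aside and the median was taken again, an alternative added after the data had been seen, the log2 fold change of PCP4 was -0.998. That of SCN1A was -1.79, of NTRK2 -1.88, of SYNPR -1.05, of PCDH9 -0.27 and of CRTAC1 -1.16. GABRA2 stood at -0.58, ENO2 at -0.49, ASIC1 at -0.51, TRPC5 at 0.47 and SCN11A at 0.12, all described with all cells in what follows. LAMP5 stood at -2.21, KCNT2 at 1.29 and KCNIP1 at 1.14. PLCD4, FOXP2, GPR26, GFRA2, KCNH7, KCNMB2 and EGR2 did not pass the filter on low counts there, so they have no value. edgeR called 0 genes there too.

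Among sodium channels, which carry the upstroke, the members differed in direction. edgeR called 0 of 10 tested, and DESeq2 called 1, SCN1A. At an unadjusted p under 0.05 by edgeR, beside 6.86% of all genes, 1 was higher and 1 lower, SCN11A and SCN1A. SCN11A, a tetrodotoxin-resistant channel of nociceptors with a persistent current, ran from 5.55 through 6.67 to 8.14 log2 CPM in long sums and from 4.95 through 6.14 to 7.17 in short sums. It was higher in long neurons in 8 of 10 animals (log2 fold change 0.51 ± 0.23, unadjusted p = 0.0372, adjusted 0.695), with ranges that overlapped. SCN10A, the other tetrodotoxin-resistant channel, had 0.29 ± 0.29, and SCN9A, a channel of the threshold region, 0.13 ± 0.19. SCN8A, the channel of nodes of Ranvier, had -0.76 ± 0.77.

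SCN1A, a fast sodium channel of large sensory neurons and interneurons, was singled out after its values were seen. Its sums ran from -1.97 through 1.95 to 3.03 log2 CPM in the long class and from 0.014 through 3.76 to 6.72 in the short class. The long sum was the lower in 9 of 10 animals, animal 5 being the exception, and the log2 fold change was -2.93 ± 0.76 (edgeR adjusted p = 0.695, DESeq2 adjusted p = 0.000865, and 0.000865 to 0.914 over the alternatives). Reads reached 50 CPM in 2 of 77 long cells and 13 of 83 short cells.

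Potassium channels, which end the action potential, gave 0 calls by edgeR and by DESeq2 among 22 tested voltage-gated members, with a median log2 fold change of 0.094 (12 members above 0). KCND3, an A-type channel, had 0.37 ± 0.50. KCNC4, a fast channel that narrows the spike, had -0.41 ± 0.44, KCND1 -0.11 ± 0.65 and KCNA1 0.43 ± 0.74. At an unadjusted p under 0.05, beside 6.86% of all genes, 1 member was higher and 1 lower. They were KCNIP1, an accessory subunit of A-type channels (1.19 ± 0.52, higher in 8 of 10 animals), and KCNH7, of the ERG family (-2.36 ± 0.77). Of 6 tested calcium- and sodium-activated members, 1 was higher and 1 lower at an unadjusted p under 0.05, KCNT2 and KCNMB2. KCNT2, a sodium-activated channel, was higher in long neurons in 9 of 10 animals, with 4.80 ± 0.88 log2 CPM long and 3.47 ± 1.05 short (log2 fold change 1.35 ± 0.46, unadjusted p = 0.00969). KCNMB2, an accessory subunit of the large-conductance calcium-activated channel, had -2.22 ± 0.85, and the channel itself, KCNMA1, had -0.13 ± 0.53. KCNK2, a leak channel opened by stretch and warmth, had -1.62 ± 0.47, and DESeq2 gave it an adjusted p of 0.0398 (0.0398 to 0.996 over the alternatives). By edgeR it was the 1 of 8 tested leak and inward rectifier members under an unadjusted p of 0.05.

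Calcium channel genes gave 0 calls by edgeR and by DESeq2 among 9 tested, with a median of -0.013. CACNA1B, the pore of the N-type channel, had 0.71 ± 0.42 (higher in 7 of 10 animals), with 14 of 77 long cells and 4 of 83 short cells at 50 CPM or more. CACNB2, an accessory subunit, had -1.29 ± 0.45 (lower in 9 of 10). By edgeR it was the 1 of the 9 under an unadjusted p of 0.05, beside 6.86% of all genes. Values for CACNA1A, CACNA1C, CACNA1H, KCNA2, KCNC1 and KCNT1 did not pass the filter on low counts and are not given.

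**Figure D3:**
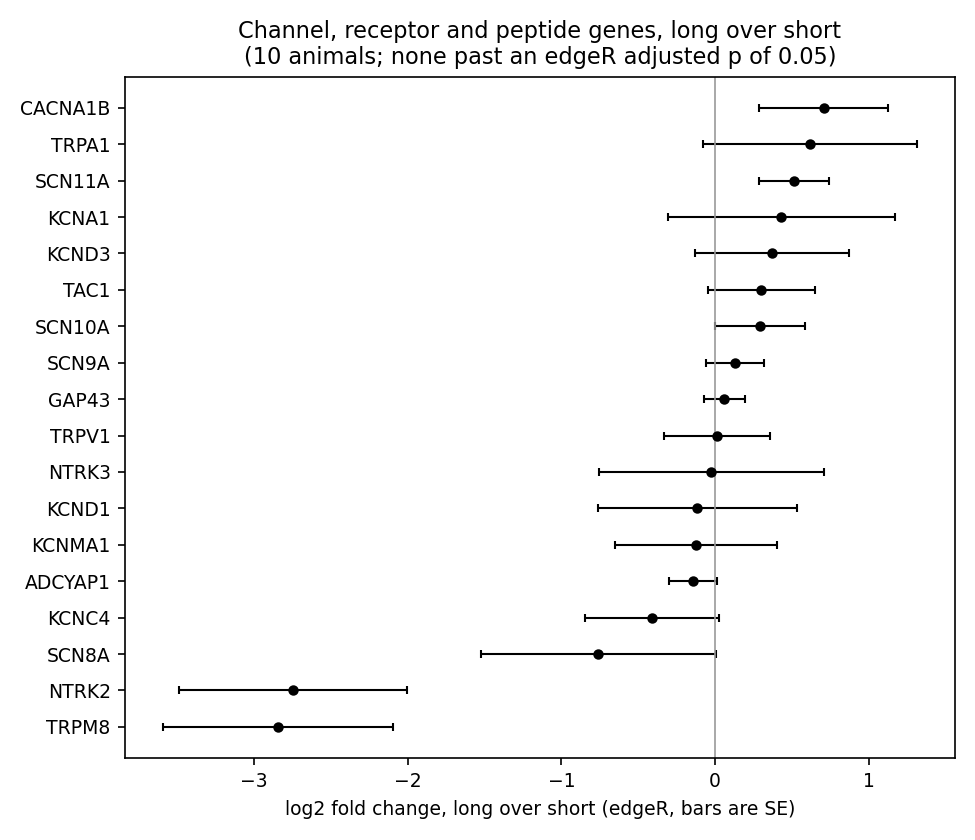
Log2 fold change, long over short (x axis), with its SE for the 18 channel, receptor and peptide genes of a fixed list that are shown here, from sums of 10 animals. TRPM8 (-2.85) and NTRK2 (-2.75) stand apart from the others, and none of the 18 passed edgeR at an adjusted p under 0.05, while DESeq2 called both of these.

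Genes of peptidergic nociceptors went both ways. Of 14 tested members edgeR and DESeq2 called 0, 9 lay above 0, and the median was 0.023. TAC1, the substance P precursor, had 12.4 ± 0.8 log2 CPM in long sums and 12.2 ± 0.9 in short sums (log2 fold change 0.30 ± 0.35). ADCYAP1, the precursor of the peptide PACAP, had 10.7 ± 0.8 in long sums and 10.8 ± 0.4 in short sums (-0.14 ± 0.16), and it reached 50 CPM in 68 of 77 long cells and 73 of 83 short cells. The heat- and capsaicin-gated channel TRPV1 had 0.01 ± 0.35 and the irritant receptor TRPA1 0.62 ± 0.70. GAL, the precursor of galanin, had -0.38 ± 0.18 (lower in 8 of 10 animals, unadjusted p = 0.0458). Of 20 tested axotomy and regeneration genes, a separate list, edgeR and DESeq2 called 0. Its median was -0.17, and 7 members lay above 0. By edgeR 3 were lower and 0 higher at an unadjusted p under 0.05, beside 3.8% of all genes lower. GAL and ATF3 were among the 3. GAP43, a protein of growing axons and also a member, had 0.06 ± 0.13. ATF3, a transcription factor of injured neurons, had -0.80 ± 0.26 (lower in 7 of 10, unadjusted p = 0.00697).

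NTRK2, the receptor of brain-derived neurotrophic factor and a marker of low-threshold A-fibre neurons, ran from -1.97 through -0.10 to 3.23 log2 CPM in long sums and from -0.28 through 3.57 to 5.999 in short sums. It was lower in long neurons in 9 of 10 animals (log2 fold change -2.75 ± 0.74, edgeR adjusted p = 0.695, DESeq2 adjusted p = 0.0041, and 0.0041 to 0.996 over the alternatives). No long cell (0 of 77) and 8 of 83 short cells reached 50 CPM. Of the 13 tested A-fibre genes edgeR called 0 and DESeq2 called 2, NTRK2 and SCN1A. By edgeR 3 were lower at an unadjusted p under 0.05, namely NTRK2, SCN1A and the proton-gated channel ASIC1 (-1.27 ± 0.50), beside 3.8% of all genes. The median of the list was -0.12, and 5 of its 13 members lay above 0. NTRK3, the receptor of neurotrophin-3 in proprioceptors and other large neurons, had -0.025 ± 0.73. GFRA2, the neurturin receptor, had -3.84 ± 1.05 at a low level (reads in 12 of 77 long and 21 of 83 short cells). TRPC5, a cation channel, had 1.42 ± 0.57 (higher in 9 of 10), and GABRA2, a GABA receptor subunit, had -2.63 ± 0.66 (lower in 9 of 10, edgeR adjusted p = 0.695, DESeq2 adjusted p = 0.00532, and 0.00532 to 0.996 over the alternatives). ENO2, neuronal enolase, had -1.71 ± 0.67. It was the 1 of 14 tested neuron identity markers under an unadjusted p of 0.05 by edgeR. The median of that list was -0.096, and 2 members lay above 0.

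Of the genes with the smallest p among those at a moderate level, the lower ones were led by PCDH9, a protocadherin of neuronal adhesion. It ran from 6.21 through 7.02 to 7.99 log2 CPM in long sums and from 7.21 through 7.94 to 8.80 in short sums (log2 fold change -0.97 ± 0.18, edgeR adjusted p = 0.345, DESeq2 adjusted p = 0.0041). It was lower in 9 of 10 animals and was called without animal 8 (-1.16, adjusted p = 0.0228, and 0.0041 to 0.924 over the alternatives). SYNPR, a protein of synaptic vesicles, had 6.34 ± 1.95 log2 CPM long and 8.40 ± 1.46 short (-2.02 ± 0.40, adjusted p = 0.345, lower in 9 of 10, DESeq2 adjusted p = 0.00036, and 0.00036 to 0.996 over the alternatives). LAMP5, a membrane protein of neuronal endosomes, had 3.16 ± 1.91 long and 6.18 ± 1.08 short (-2.90 ± 0.61, adjusted p = 0.365, lower in 9 of 10, DESeq2 adjusted p = 2.3e-05, and 2.3e-05 to 0.996 over the alternatives). CRTAC1, a secreted matrix protein picked out after its values were seen, was lower in 10 of 10 animals (-2.62 ± 0.51, adjusted p = 0.345, DESeq2 adjusted p = 5.5e-06, and 5.5e-06 to 0.914 over the alternatives).

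CNP, a protein of myelin, and ATP1B2, a sodium pump subunit abundant in glia, were also among the lower genes. ATP1B2 ran from 2.22 through 5.73 to 7.36 log2 CPM in long sums and from 4.48 through 7.06 to 7.98 in short sums, and the ranges overlapped. Its log2 fold change was -1.29 ± 0.26 (adjusted p = 0.365, lower in 9 of 10 animals, DESeq2 adjusted p = 0.0041, and 0.0041 to 0.996 over the alternatives). CNP, chosen after its values were seen, had 5.16 ± 1.24 log2 CPM long and 6.64 ± 0.73 short (-1.43 ± 0.33, adjusted p = 0.695, lower in 10 of 10, DESeq2 adjusted p = 0.0105, and 0.0105 to 0.996 over the alternatives).

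Of 14 tested satellite glia markers edgeR called 0 and DESeq2 called 2 lower. By edgeR 7 were lower and 0 higher at an unadjusted p under 0.05, beside 3.8% of all genes lower. Among them were ATP1B2, FABP7 (-1.998 ± 0.888), APOE (-0.74 ± 0.30), SLC1A3 (-0.97 ± 0.43), ERBB3 (-0.39 ± 0.15) and CADM2 (-1.05 ± 0.33), and the median of the list was -0.66. FBLN5 was the 1 member above 0 (0.31 ± 0.43). Of 10 tested Schwann cell markers edgeR called 0 and DESeq2 called 2 lower. By edgeR 3 were lower at an unadjusted p under 0.05, CNP and EGR2 (-1.82 ± 0.79) among them. The median was -0.90, and 3 members lay above 0, NGFR (0.21 ± 0.31), SCN7A (0.15 ± 0.18) and L1CAM (0.04 ± 0.24). The mean glial levels given above were lower in long neurons in 8 of 10 animals without passing the adjusted test, and the part that glial RNA has in these genes was not tested. Without the tenth of cells with the most satellite glia signal, the log2 fold change was -1.25 for ATP1B2 and -0.87 for CNP.

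CCL4, a chemokine made by macrophages and other immune cells, had the smallest p of all genes. It ran from 0.18 through 4.92 to 10.2 log2 CPM in long sums and from -1.97 through 1.74 to 6.91 in short sums. It was higher in the long class in 9 of 10 animals (log2 fold change 3.40 ± 0.58, edgeR adjusted p = 0.332, DESeq2 adjusted p = 0.000865, and 0.000163 to 0.996 over the alternatives), and 15 of 77 long cells against 3 of 83 short cells reached 50 CPM. Its family holds closely related copies, and how reads shared by copies were counted is not given in the sources used here. The macrophage list as a whole had a median of 0.17 with 0 of 14 tested members called. Without the tenth of cells with the most macrophage signal the log2 fold change of CCL4 was 2.23, and on means over cells it was 1.51. Macrophage RNA as a source was not tested.

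The other higher genes differed by less. OGFRL1, a relative of the opioid growth factor receptor, had 8.30 ± 0.78 log2 CPM long and 7.59 ± 0.77 short and was higher in 10 of 10 animals (0.70 ± 0.18, adjusted p = 0.695). ARMH4 was likewise higher in 10 of 10 (0.76 ± 0.23). The sorting nexin SNX18 (0.99 ± 0.28), the copper transporter SLC31A1 (0.60 ± 0.17) and BNIP2 (0.53 ± 0.16) were each higher in 9 of 10.

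**Figure D4:**
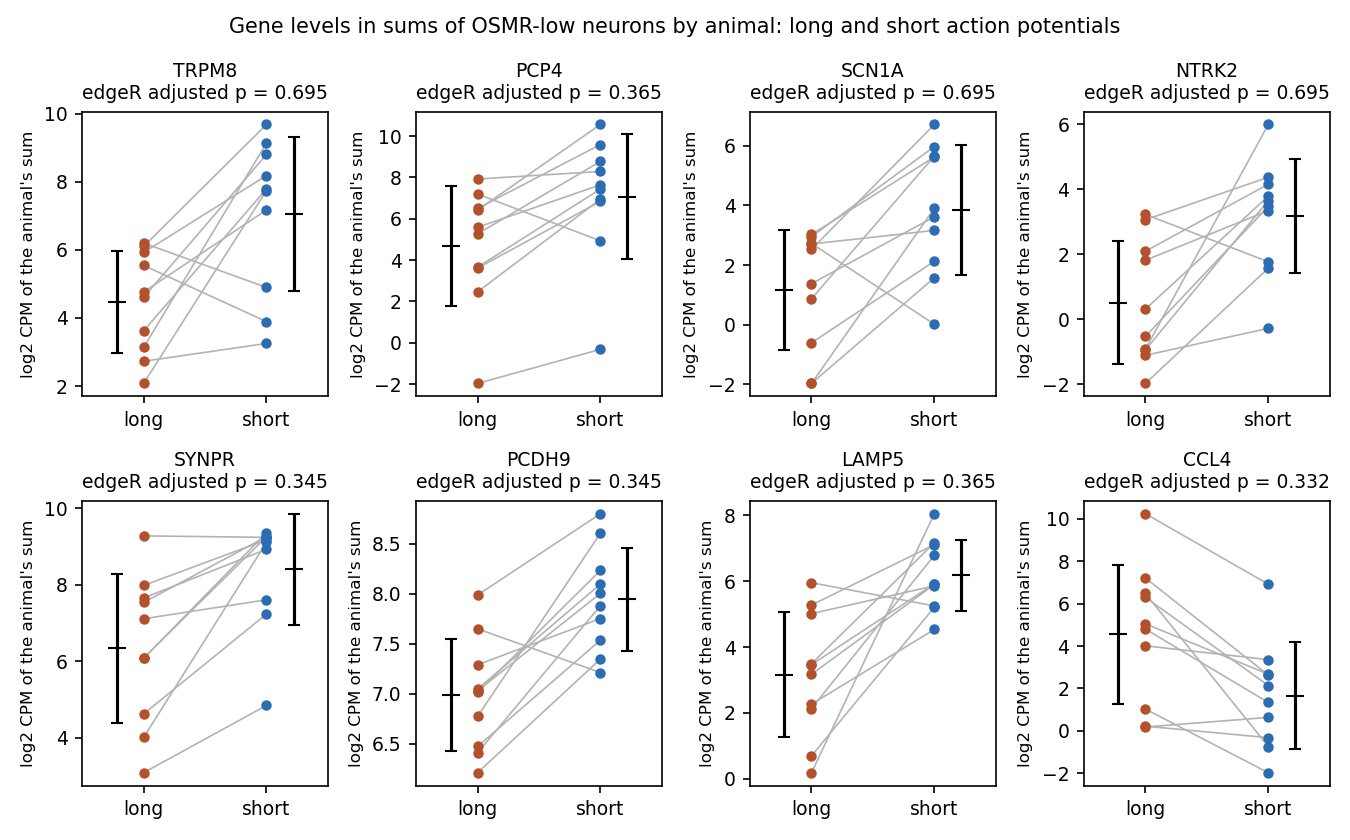
Log2 CPM (y axis) of 8 genes in the long sum and the short sum of each animal, joined by a line per animal, with mean ± SD of 10 animals beside each class in black. The first 7 genes are lower in long sums in 8 or 9 of 10 animals and CCL4 is higher in 9, and the ranges of the classes overlap in each.

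The recordings were compared in the same animals. Of 48 recorded parameters, 10 measure the length, slope or shape of the same action potential and were not tested, and 1 was measured in too few cells. Of the other 37, 0 (0%) passed the exact two-sided sign-flip test at an adjusted p under 0.05, and 5 (13.5%) had an unadjusted p under 0.05. Exact copies of another parameter made up 2 of the 37. The smallest adjusted p was 0.181. With 10 animals the smallest p is 0.00195. Among 37 tests, 1 parameter at that value could not have passed on its own, while 2 at that value would have passed. No parameter reached it. The names are the authors', and the file gives neither units nor definitions.

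The value at the fastest of the listed stimulation rates, X100Hz, was lower in long neurons. It ran from 4.70 through 5.43 to 9.20 in long means and from 5.67 through 8.47 to 12.4 in short means. It averaged 6.25 ± 1.63 in long neurons and 8.30 ± 1.82 in short neurons (SD, n = 10 animals). It was lower in 9 of 10 animals (exact p = 0.00586, adjusted 0.181), animal 3 being the exception. At slower rates most means stood near the ceiling of 20. X2Hz averaged 18.3 ± 2.8 in long neurons and 19.9 ± 0.2 in short neurons (lower in 5 animals, higher in 0, exact p = 0.0625, adjusted p = 0.33). In the remaining animals both classes stood at 20, so the sign-flip test could give no smaller p for X2Hz. X50Hz averaged 12.9 ± 2.5 in long neurons and 13.9 ± 2.4 in short neurons (adjusted p = 0.595).

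The listed threshold of the action potential, AP_threshhold, was less negative in long neurons. It averaged -42.4 ± 2.0 in long neurons and -45.4 ± 3.7 in short neurons (less negative in 8 of 10 animals, exact p = 0.00977, adjusted 0.181). Short means in animals 1, 2, 3 and 10 lay below every long mean. ADS_RT_ABS75, measured in 7 animals, averaged 3.55 ± 0.35 in long neurons and 3.15 ± 0.34 in short neurons and was higher in 7 of 7 (exact p = 0.0156, the smallest that 7 animals can give, adjusted 0.181). By its name it may be a rise time, and thus related to the waveform that chose the classes. Without the cells with TRPM8 at 50 CPM or more, the differences turned to -0.35 for the threshold and -0.076 for ADS_RT_ABS75, and X100Hz differed by -0.46 in place of -2.05. The APD classes were formed anew there, and the part of that change was not tested.

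The after-potential value AHP_new averaged 37 ± 12 in long neurons and 25 ± 5 in short neurons (higher in 8 of 10 animals, exact p = 0.0254, adjusted 0.188). Animal 2 had the widest gap, with 62.4 in long cells and 17.1 in short cells. RMP_beforeAP averaged -59.9 ± 0.8 in long neurons and -61.1 ± 0.6 in short neurons (less negative in 8 of 10, exact p = 0.0195, adjusted 0.181).

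Size and passive values showed no difference past the spread between animals. Diameter averaged 36.3 ± 2.8 in long neurons and 35.7 ± 2.6 in short neurons (adjusted p = 0.864), with a within-animal difference of 0.60 ± 3.62. The value cslow averaged 66.1 ± 21.1 in long neurons and 64.2 ± 11.2 in short neurons. RMP averaged -57.1 ± 3.5 in long neurons and -57.1 ± 2.3 in short neurons. Rheobase averaged 143.2 ± 64.3 in long neurons and 111.8 ± 45.9 in short neurons (adjusted p = 0.586), and Input_res_new 0.302 ± 0.119 in long neurons and 0.242 ± 0.055 in short neurons (adjusted p = 0.401). AP_max averaged 48 ± 5 in long neurons and 45 ± 7 in short neurons, and Min_AHP averaged -72.9 ± 3.3 in long neurons and -75.0 ± 2.5 in short neurons.

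**Figure D5:**
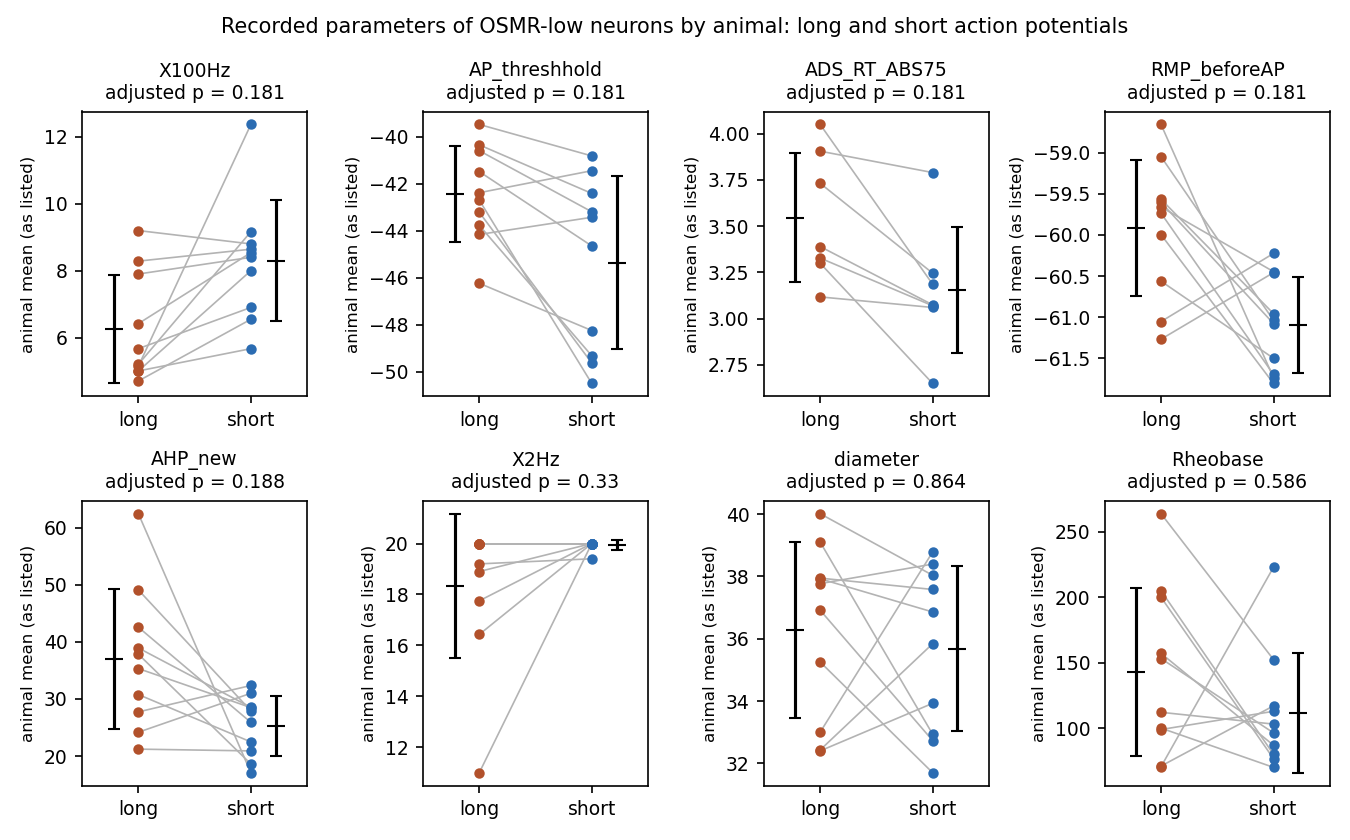
Animal means of 8 recorded parameters (y axis, as listed, no units given) in long and short neurons, joined by a line per animal, with mean ± SD beside each class in black. X100Hz is lower in long neurons in 9 of 10 animals and AP_threshhold less negative in 8 of 10, and no parameter passed at an adjusted p under 0.05.

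Over single cells, the order of APD within an animal followed some of these genes and not others. In the 8 animals with at least 10 cells, Spearman's rho between APD and expression averaged -0.34 for PCDH9 (negative in 7), -0.33 for SYNPR (7) and -0.32 for SCN1A (7). For CCL4 it averaged 0.29 (positive in 8) and for KCNIP1 0.22 (positive in 8). For TRPM8 it averaged -0.12 (negative in 5), for SLC1A3 -0.050 (5), and for GAL 0.15 (positive in 5), against a fold change below 0. Among parameters, AHP_new averaged 0.34 and diameter 0.046. These cells chose the classes, so the values describe the same data and carry no test.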

How the data were processed

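Gene expression and patch-clamp values of the same neurons were used. The deposited gene tables hold estimated counts for 30420 genes, not scaled to depth, by a tool not given in the sources used here; the build is likewise not given. The submitters' processing notes name bcl2fastq 2.20. The deposited cell table gives the other values (recordings, animal) without units, and 52 of its 420 columns were used. Its 269 lines include 43 of no sample used here. A symbol was found for 14867 identifiers. No 2 cells held identical counts.

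Counts were summed per animal and class (20 sums of 1133675 to 28085082) and rounded. edgeR 4.0.16 (R 4.3.3) was run with TMM, filterByExpr, a term for each animal and adjustment by Benjamini and Hochberg. The animal itself pairs the classes. SE is the fold change divided by the root of F. Levels of sums are log2 CPM with a prior count of 2. Recordings and quality measures were compared as animal means by exact two-sided sign-flip tests (scipy 1.17.1). Parameters had to be measured in at least 70% of cells. DESeq2 1.42.0 and limma 3.58.1 were alternatives. Scripts were tested on simulated data.

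The cells, gene lists and tests were chosen with earlier results of these data known. Named genes were up to 12 a direction past the threshold, otherwise the 6 with the smallest p at a mean log2 CPM over 4 and 1 direction in all but 1 animal, plus a fixed list of channels, receptors and peptides. Named after their values were seen were PLCD4, SCN1A, CNP, CRTAC1, GABRA2 and the list members given only as being under an unadjusted p of 0.05 (FOXP2, GPR26, KCNH7, KCNIP1, KCNMB2, KCNT2, KCNK2, CACNB2, ASIC1, GAL, ATF3, FABP7, APOE, SLC1A3, ERBB3, CADM2, EGR2, ENO2, GFRA2, TRPC5), and glial markers above 0 (FBLN5, NGFR, SCN7A, L1CAM). So were the cold thermoreceptor genes CDH8 and TAFA4. The recordings given by name beside those 5 under an unadjusted p of 0.05 were likewise picked. Results for some genes are not reported here. Lists had counts and a median only. Each of the 26 lists had 0 members called by edgeR. P-values measure the spread between these animals. Strand was not marked by the method, so reads of overlapping genes cannot be told apart.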

Additional observations from a re-analysis of the deposited data

Results flagged for a closer look

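For 71 genes and recordings, in each class of 10 animals (or 7, for values measured in fewer), the highest or lowest animal was set against its nearest neighbour, and 17 of these groups had an animal standing apart by Dixon's criterion, which chance meets in about 1 of 20 groups. Among genes, APOE was lowest in the short sum of animal 4 (2.79 log2 CPM, next 5.09). The short sum of animal 8, which holds 3 cells, was lowest in SYNPR (4.84, next 7.23) and PCP4 (-0.32, next 4.93), and its long sum, of 2 cells, in SLC1A3 (-1.97, next 1.10). Animal 1, with 5 cells, was highest in SCN9A in the long sum (8.63, next 7.48) and lowest in GAL in the long sum (4.56, next 7.19) and the short sum (4.87, next 8.50). TRPC5 was lowest in the long sum of animal 10 (1.23, next 3.75).

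Among recordings, the short mean of X100Hz was highest in animal 2 (12.4, next 9.17), and the short mean of cslow in animal 1 (91.1, next 70.2). The long means of X2Hz and X4Hz were lowest in animal 1 (11.0, next 16.4, and 10, next 14.9). The short means of X2Hz, X4Hz and X10Hz were lowest in animal 7 (19.4, next 20.0; 18.1, next 20.0; and 18.1, next 19.1), and those of X20Hz and X50Hz in animal 1 (14.7, next 17.2, and 8.33, next 12.4).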

How the results depend on the processing

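edgeR called 0 genes higher and 0 lower, and 0 under DESeq2's size factors, without the animal as a replicate block (1173 at an unadjusted p under 0.05), and under each other choice of cells. DESeq2's own test called 10 higher and 37 lower, and edgeR with no filter on low counts called 1 higher and 15 lower; the cause was not tested. Leaving out 1 animal at a time gave 0 higher and 0 to 2 lower (PCP4 without animal 5, PCDH9 among those without animal 8). The parameters gave 0 under each alternative, without the replicate block too. That says little of stability for the paired test, where 1 parameter at the smallest possible p could not pass among 37 on its own. Of 71 gene and parameter values, 48 kept their direction under each alternative run. Those that turned were mostly near 0, and the cause was not tested for any. TRPM8 without its own cells stood at 0.41. There its level is held under 50 CPM in each cell by construction, which does not fix the direction. Animals 1 and 8, with 2 long cells each, limit the precision of each value.

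The log2 fold changes of genes that turned were as follows. With no filter on low counts, TRPV1 was -0.016. Without the block, KCND1 was 0.19, KCNMA1 0.27, NTRK3 0.16, ADCYAP1 0.040, TRPV1 -0.20 and TRPA1 -0.24. With limma on means over cells, GAP43 was -0.078 and GAL 0.42. With 1 day in culture only, SCN9A was -0.15, CACNA1B -0.11, KCND1 0.33, KCND3 -0.54, NTRK3 1.43, TAC1 -0.71, TRPV1 -1.03, TRPA1 -2.24 and GAP43 -0.042. With OSMR under 10 CPM, KCNMA1 was 0.26, ADCYAP1 0.070, TRPV1 -0.064 and GAL 0.25. With OSMR under 200 CPM, KCND3 was -0.074 and GAP43 -0.091. With the middle of the APD range left out, KCND1 was 0.14, NTRK3 0.13, ADCYAP1 0.029 and GAL 0.58. With diameter taken out of APD, SCN9A was -0.15, KCND1 0.12 and TRPV1 -0.39. In cells with ADCYAP1 at 50 CPM or more, KCND1 was 0.12, NTRK3 0.38 and TRPV1 -0.018. Without the tenth of cells with the most macrophage signal, KCND1 was 0.051 and TRPV1 -0.011. Without the tenth with the most satellite glia signal, KCNMA1 was 0.056, NTRK3 0.058, TRPV1 -0.12 and GAP43 -0.00012. With at least 5 cells in each class, SCN9A was -0.074, SCN10A -0.11, KCND3 -0.21, KCNMA1 0.18, TRPV1 -0.097 and GAP43 -0.040. Without cells with TRPM8 at 50 CPM or more, KCNMA1 was 0.0054, NTRK3 0.15 and TRPV1 -0.19. Leaving out 1 animal at a time gave -0.44 to 0.27 for KCND1, -0.41 to 0.17 for KCNMA1, -0.40 to 0.34 for NTRK3, -0.22 to 0.25 for TRPV1 and -0.024 to 0.15 for GAP43.

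Among recordings, long minus short turned as follows. With 1 day in culture only Input_res_new was -0.0154. With OSMR under 10 CPM cslow was -0.566, and with OSMR under 200 CPM RMP was 0.634. With the middle of the APD range left out, RMP was 1.40, and with class medians it was 2.56. With diameter taken out of APD, diameter was -0.729, cslow -0.529, RMP 0.660 and Rheobase -6.13. With at least 5 cells in each class, diameter was -0.159 and RMP 0.820. Without cells with TRPM8 at 50 CPM or more, AP_threshhold was -0.345, ADS_RT_ABS75 -0.0757, cslow -12.6, X20Hz 0.0307 and X50Hz 0.833. Leaving out 1 animal at a time gave -0.0227 to 1.31 for diameter, -1.95 to 5.83 for cslow and -0.935 to 0.681 for RMP.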
